A study of Mus musculus with 15 samples.

Results

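The lysosomal genes described here are 47 genes that encode enzymes of the lysosome, proteins of its membrane, parts of its proton pump and a factor that regulates it. They were chosen by name, with earlier results of these data known, and all 47 were found among the 55849 gene rows measured in mouse liver. RNA was sequenced in 15 libraries, 5 in each of 3 groups. In the first group, mice had received KSL0608-Se and irradiation, in an order the labels do not give (called treated here). The other groups were aged control mice and young control mice. KSL0608-Se is a compound for which the labels give a code name and no structure, and the study's title concerns senolysis (the killing of senescent cells) switched on by light. The labels state neither the age, sex, strain or genotype of the mice, nor the dose, the light, or whether the controls received vehicle or light. Whether the treated mice were old is likewise not stated. It is not stated either that the 5 libraries of a group are 5 animals, and the p-values below therefore rest on a spread between libraries that could be partly technical.

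Lysosomes are acidic organelles in which hydrolases break down glycans, glycosaminoglycans, sphingolipids, neutral lipids and proteins delivered by endocytosis, phagocytosis and autophagy. A proton pump acidifies them, a coat of glycosylated membrane proteins protects their wall, and the transcription factor TFEB binds an E-box element in the promoters of many lysosomal genes. Senescent cells are commonly recognised by galactosidase activity that persists at a pH above the lysosomal one, and that activity comes from the enzyme encoded by Glb1. In liver, hepatocytes carry most of the tissue's mass, while Kupffer cells, the resident macrophages, are rich in lysosomes and in proteases such as cathepsin S.

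Promoter sequences are shown for 3 genes on which the results below turn, Glb1 for the galactosidase, Lamp1 for the lysosomal wall and Ctss for the cathepsin with the largest difference. Each is the stretch of 250 bases before the annotated start, given 5′ to 3′ on the gene's own strand, from RefSeq on build GRCm38.p6, at chr9:114400828-114401077 for Glb1, chr8:13158911-13159160 for Lamp1 and chr3:95526536-95526785 for Ctss, all on the plus strand. Capitals mark the letters CACGTG, the core of the E-box that TFEB and its relatives are known to bind, which reads the same on both strands.
Glb1: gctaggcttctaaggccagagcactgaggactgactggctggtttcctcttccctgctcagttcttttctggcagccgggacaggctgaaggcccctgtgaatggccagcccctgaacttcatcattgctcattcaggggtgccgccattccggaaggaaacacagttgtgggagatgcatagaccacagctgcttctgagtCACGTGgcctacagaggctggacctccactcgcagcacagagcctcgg
Lamp1: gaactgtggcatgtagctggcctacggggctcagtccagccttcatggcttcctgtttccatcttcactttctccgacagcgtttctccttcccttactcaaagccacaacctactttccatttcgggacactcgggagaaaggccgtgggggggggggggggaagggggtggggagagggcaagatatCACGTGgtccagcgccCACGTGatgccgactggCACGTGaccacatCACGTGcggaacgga
Ctss: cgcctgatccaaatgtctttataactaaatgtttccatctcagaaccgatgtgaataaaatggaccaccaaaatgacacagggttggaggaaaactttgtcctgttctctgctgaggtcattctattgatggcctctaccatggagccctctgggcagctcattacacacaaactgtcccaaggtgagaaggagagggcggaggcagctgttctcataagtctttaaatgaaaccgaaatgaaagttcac

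The Glb1 promoter holds the letters once, 48 bases before the start. The Lamp1 promoter holds them 4 times, at 61, 45, 28 and 15 bases before the start. The stretch shown for Ctss holds no match, which says only that these letters are not in this window. RefSeq windows that run from 250 bases before to 50 after the start were at hand for 40 of the 47 genes, and 12 of them (30.0%) held CACGTG, against 8.09% of 27025 genes in the same table. They were Glb1, Ctsa, Gaa, Sgsh, Naglu, Gla, Arsa, Ctsd, Ctsl, Lgmn, Lamp1 and Mcoln1. The longer form TCACGTG, searched on both strands and a subset of the same matches, was held by 11 of the 40 (27.5%) against 4.29% of all genes. A match describes the sequence and is not evidence that a factor bound there in these livers.

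Transcript levels are given as TPM, a transcript's share of the library corrected for its length and scaled to a fixed total, so that levels can be compared between genes. Read depth cannot be read from TPM and is unknown for these libraries. Differences are given as log2(TPM + 1) of the group named first minus the group named after it, with the standard error from a linear model over all 3 groups (limma). A gene was called when its Benjamini-Hochberg adjusted p, over the 12168 genes that averaged 1 TPM or more across all libraries, was under 0.05. Of the 47 genes, 46 passed this filter, and Ctsk was under it. Group values below are mean ± SD over 5 libraries.

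The libraries matched liver, with hepatocyte markers such as albumin summing to 110142 to 148880 TPM in treated, 111269 to 154323 in aged and 147448 to 194194 in young libraries. The 47 lysosomal genes together held 3928 ± 560.3 TPM in treated, 3891 ± 362 TPM in aged and 3555 ± 744 TPM in young livers, between 0.232% and 0.455% of all transcripts in a library. The libraries did not behave alike. Young 4 had the lowest value of all 15 libraries for 33 of the 47 genes and of the 5 young libraries for 40, and its summed level was 2320 TPM, against 3546 to 4277 TPM in the other young libraries. Treated 1 had the lowest treated value for 35 genes, with a sum of 3115 TPM against 3781 to 4545 TPM in the other treated libraries. Young 4 and treated 1 also had the lowest median-ratio size factors (0.701 and 0.832, against 0.894 to 1.18 in the other libraries) and the largest shares of TPM in their 10 highest genes (32.5% and 32.2%, against 23.0% to 30.4%). The part of this in their low lysosomal levels was not tested. Aged 5 stood apart for single genes, described where they occur. Across all pairs of the 47 genes the median Pearson correlation over the 15 libraries was 0.46 (1081 pairs, a description: the libraries share groups, and genes share libraries).

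**Figure D1:**
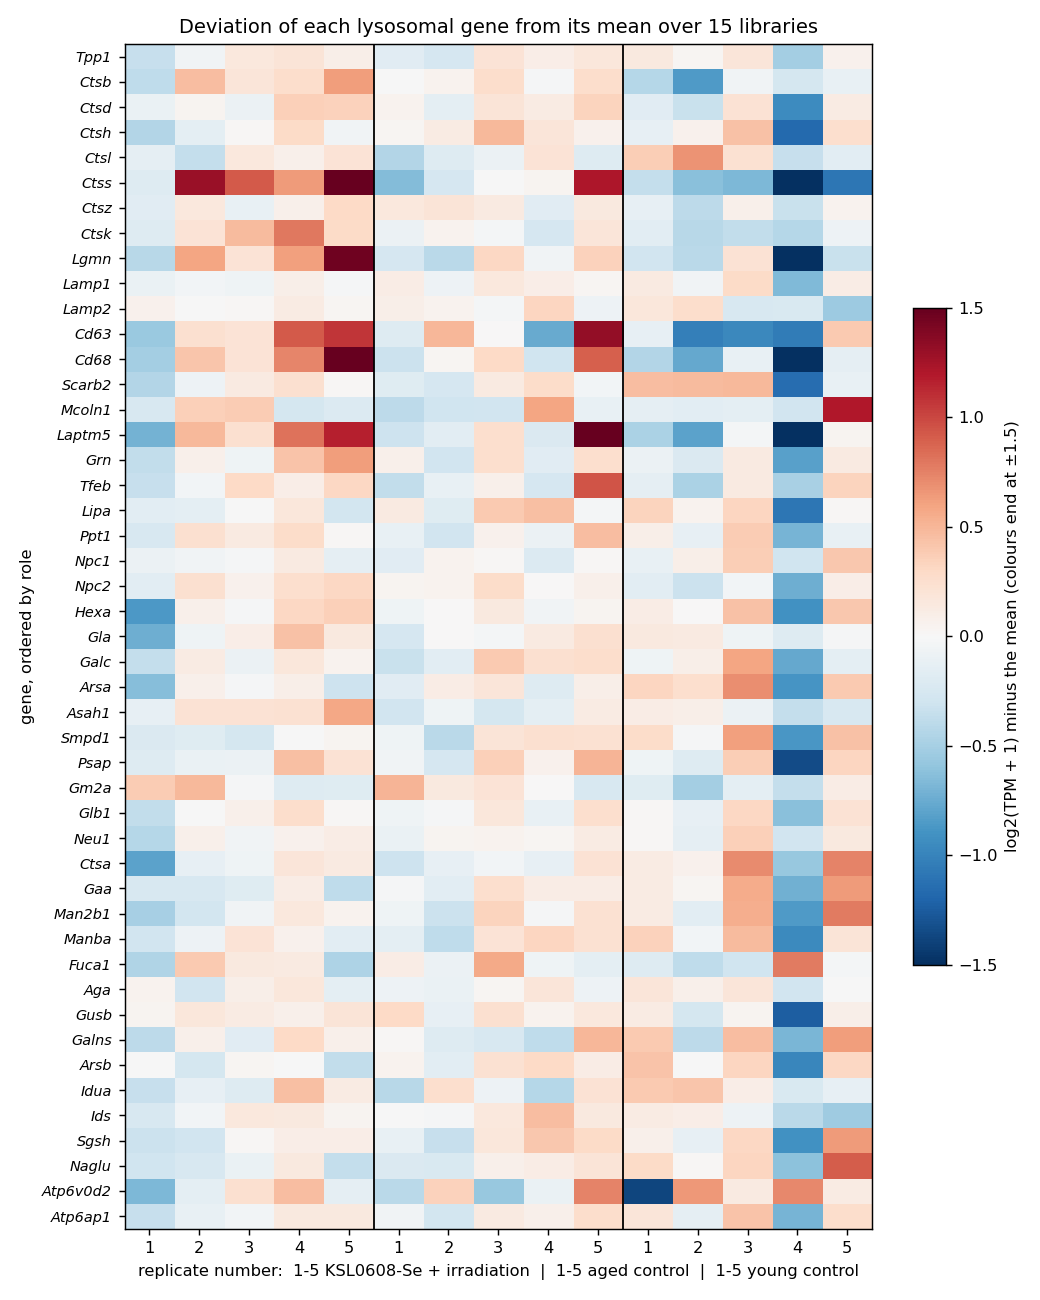
Each row is a lysosomal gene, ordered by role, and each column is a library, with the 5 treated (KSL0608-Se + irradiation) libraries left, the 5 aged in the middle and the 5 young at the right. Colour gives log2(TPM + 1) minus the gene's mean over the 15 libraries, with colours ending at ±1.5. The column of young 4 is blue in most rows, and Ctss, Lgmn, Cd68 and Laptm5 have the strongest colours.

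Of the tested genes only Ctss was called in any comparison. Against young livers, treated livers had 1 of 46 tested genes called, Ctss, which was higher (2.17%, against 2.91% of all genes called in this comparison and 2.18% called higher). At an unadjusted p under 0.05 the count was 6 of 46 (13.0%), against 17.8% of all genes. Treated against aged livers gave 0 of 46 called by limma, with 1 at an unadjusted p under 0.05, Asah1. Over all genes that comparison called 1 of 12168 (0.00822%), and 4.41% had an unadjusted p under 0.05. Aged against young livers gave 0 of 46 called, with 2 at an unadjusted p under 0.05, Ctss and Ctsb, where 1.08% of all genes were called and 8.72% had such a p. These shares rest on few genes, as 1 of 46 is already 2.17%, and a difference between the 46 and all genes was not tested. Ctss was 1 of the 8 tested proteases, and 0 genes of the other roles were called.

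Libraries of the groups did not overlap for 1 of the 46 genes in treated against young livers (Ctss), where 4.09% of all genes behaved so. In treated against aged livers this held for 0 of 46, against 0.69% of all genes (0.403% higher and 0.288% lower), and in aged against young livers for 1 of 46 (Ctsb), against 3.38%. The median log2 difference of the 46 genes was -0.00 for treated minus young, -0.04 for treated minus aged and 0.09 for aged minus young livers, beside 0.06, -0.00 and 0.05 over all genes tested. In each comparison 41 of the 46 genes had a 95% interval that lay within 1 log2 unit of 0 on either side. The other 5 were Ctss, Lgmn, Cd63, Cd68 and Laptm5 in each of the 3 comparisons. Each group enters 2 of the 3 comparisons, so their values are set side by side and are not independent of each other. How many genes were called among the 46 in treated against young livers depended on single libraries, with 4 without treated 1 (Ctss, Ctsb, Cd68 and Lgmn, all higher), 3 without young 4 (Ctss higher, Arsa and Gaa lower), and 0 without treated 2, treated 5 or young 5.

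**Figure D2:**
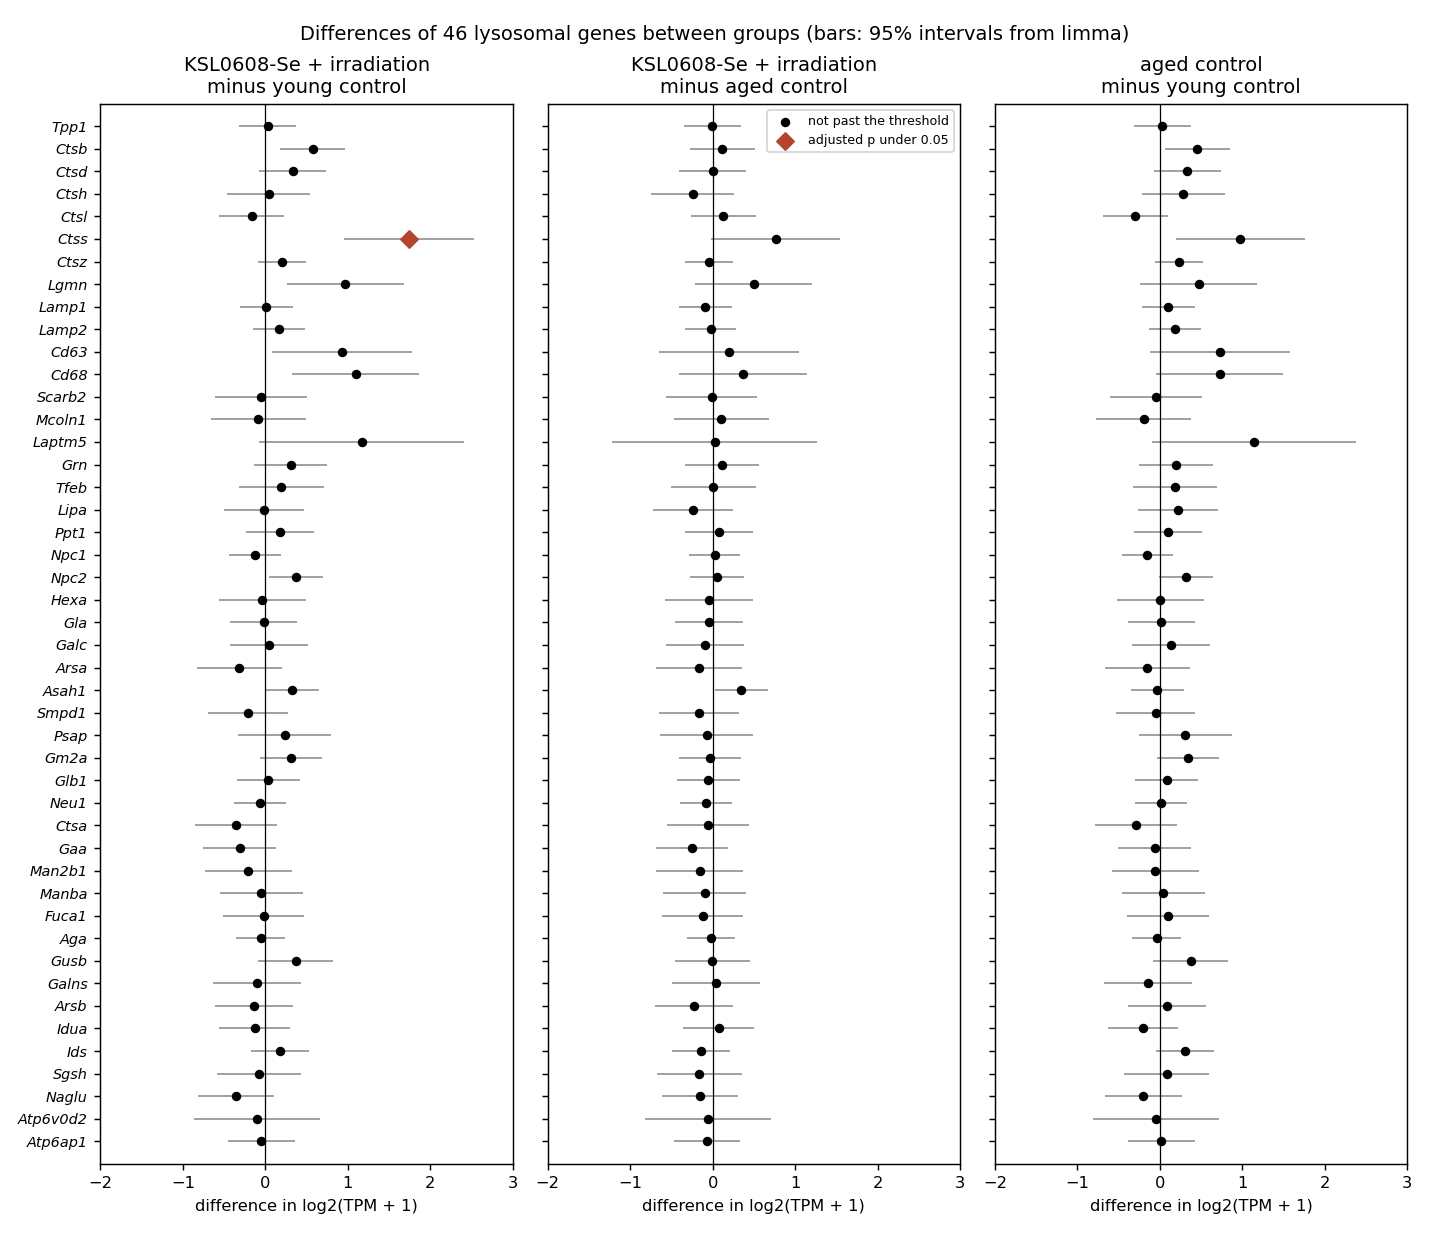
Each point is the difference in log2(TPM + 1) of a lysosomal gene, with bars for the 95% interval from limma, for treated minus young at the left, treated minus aged in the middle and aged minus young at the right. The diamond marks an adjusted p under 0.05, which Ctss reached in treated against young livers (1.74, adjusted p = 0.0182), while most intervals span 0.

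Among the proteases, Ctss had the largest difference of the 46 genes in treated against young and in treated against aged livers, while in aged against young livers that was the membrane gene Laptm5. Ctss encodes cathepsin S, a cysteine protease of antigen-presenting cells that trims the invariant chain of MHC class II. It stood at 47.34, 135.31, 103.98, 85.54 and 157.64 TPM in treated livers 1 to 5, at 34.37, 45.56, 54.31, 56.25 and 127.98 TPM in aged livers and at 42.35, 34.89, 33.73, 14.97 and 25.25 TPM in young livers. Every treated library lay above every young library, while the treated and aged ranges overlapped, with aged 5 far above the other aged libraries. Over all genes tested, 3.14% had treated libraries that were all above the young ones. The means were 106 ± 43.0 TPM in treated, 63.7 ± 37.0 TPM in aged and 30.2 ± 10.5 TPM in young livers. Ctss rose in treated against young livers by 1.74 (SE 0.37, adjusted p = 0.0182), a 3.50-fold ratio of mean TPM. It differed by 0.76 (SE 0.37, adjusted p = 0.925) between treated and aged and by 0.98 (SE 0.37, adjusted p = 0.380) between aged and young livers, neither of which passed. Which of these 2 differences was larger depended on the libraries used and their weights. Without aged 5 they were 1.05 (adjusted p = 0.864) and 0.69 (adjusted p = 0.756) in the same order. They were 1.02 and 0.98 without treated 1, 0.764 and 0.756 without young 4, and 1.07 and 0.57 with library weights. The call in treated against young livers was lost without treated 2 (adjusted p = 0.0591), treated 5 (0.0529) or young 5 (0.0509) and with no filter on low values (0.0569).

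Whether more cells of a type or more RNA per cell carries such a difference cannot be told apart in whole liver. Markers of macrophages and monocytes differed along with Ctss. The 21 markers fixed for these cells summed to 503 to 2829 TPM (median 1277) in treated, 755 to 1674 (median 810) in aged and 252 to 673 (median 606) in young libraries, and none was listed at 0 in any library. Of the 20 tested, 4 rose in treated against young livers, Cybb, Lyz2, Ms4a7 and Trem2, and all 20 had a positive difference (median 1.17). All 20 were also positive in aged against young livers (median 0.74) and in treated against aged livers (median 0.41). Trem2, a receptor of lipid-laden macrophages, also rose in aged against young livers (1.45, SE 0.28, adjusted p = 0.0154). Lyz2, which encodes lysozyme, averaged 325 ± 245 TPM in treated, 258 ± 171 TPM in aged and 72.9 ± 26.7 TPM in young livers. Among 12 Kupffer cell markers, Clec4f, Vsig4 and Clec1b rose and Cd163 fell in treated against young livers, and the list summed to 498 to 1622 TPM in treated, 499 to 803 TPM in aged and 230 to 630 TPM in young libraries. Lists of other immune cells differed too. Of 10 tested T and NK cell markers, Gzmb and Klrk1 rose in treated against young livers and all 10 had a positive difference (median 1.16). In aged against young livers 9 of these 10 were positive (median 0.86). Of 11 tested B and plasma cell markers, Ighm, Igkc and Jchain rose in treated against young and in aged against young livers, with medians of 1.53 and 1.74 over the list. Of 6 tested neutrophil markers, Retnlg rose in treated against young livers (median of the list 1.14, and 0.33 in aged against young livers). Hepatocyte markers went the other way in treated against young livers, with 2 of 15 positive (median -0.41) and Cyp2e1 called lower. In aged against young livers 0 of these 15 were positive (median -0.24). Over all genes tested, 57.4% had a positive difference in treated against young and 59.2% in aged against young livers. The part of any of these cells in the difference of Ctss was not tested.

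Ctsb encodes cathepsin B, a cysteine protease expressed in most cells and among the most abundant of the 47 transcripts. It stood at 290.34, 522.29, 427.75, 452.55 and 582.67 TPM in treated livers, at 374.92, 390.55, 454.38, 373.58 and 454.95 TPM in aged livers and at 280.88, 208.34, 363.5, 314.73 and 348.07 TPM in young livers. All aged libraries were above all young ones, which held for 2.8% of all genes, whereas treated 1 lay within the young range. The difference was 0.57 (SE 0.19, adjusted p = 0.111) in treated against young, 0.12 in treated against aged and 0.45 (SE 0.19, adjusted p = 0.447) in aged against young livers, and none of these passed. Without treated 1 the treated against young difference was 0.73 with an adjusted p of 0.0188. Leaving out single libraries, that difference ran over 0.45 to 0.73.

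Lgmn encodes legumain, an asparaginyl endopeptidase that activates cathepsins. Its levels were 49.6, 100.86, 76.51, 102.03 and 184.45 TPM in treated livers, 55.69, 49.96, 82.87, 64.25 and 84.97 TPM in aged livers and 54.4, 49.93, 77.63, 21.37 and 52.44 TPM in young livers. The groups overlapped, with treated 5 highest and young 4 lowest. Lgmn differed by 0.97 (SE 0.33, adjusted p = 0.135) between treated and young, by 0.50 (SE 0.33, adjusted p = 0.925) between treated and aged and by 0.47 between aged and young livers. The first of these passed without treated 1 (1.20, adjusted p = 0.0415), and it ran over 0.69 to 1.20 leaving out single libraries.

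Ctsd encodes cathepsin D, the major lysosomal aspartic protease. It stood at 249.85, 274.35, 250.66, 342.76 and 339.67 TPM in treated livers, at 276.01, 241.16, 306.22, 291.46 and 335.68 TPM in aged livers and at 238.32, 211.18, 310.51, 138.87 and 290.63 TPM in young livers. These ranges overlapped throughout, and young 4 was the lowest. The differences were 0.33 (SE 0.19, adjusted p = 0.390) for treated minus young, 0.00 (SE 0.19, adjusted p = 1.00) for treated minus aged and 0.33 (SE 0.19, adjusted p = 0.734) for aged minus young livers.

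The other proteases overlapped between groups. Ctsl, the cysteine protease cathepsin L and the highest of the 47 by mean, averaged 433 ± 67.0 TPM in treated, 395 ± 65.2 TPM in aged and 496 ± 138 TPM in young livers. Ctsh, an aminopeptidase, averaged 332 ± 60.1 TPM in treated, 390.1 ± 52.8 TPM in aged and 339 ± 119 TPM in young livers, with a treated minus aged difference of -0.24 (SE 0.24, adjusted p = 0.925). Ctsz, the carboxypeptidase cathepsin X, averaged 284 ± 37.8 TPM in treated, 291 ± 27.6 TPM in aged and 248 ± 36.6 TPM in young livers, with an aged minus young difference of 0.24 (SE 0.14, adjusted p = 0.732). Tpp1, a tripeptidyl peptidase, averaged 30.5 ± 4.54 TPM in treated, 30.5 ± 4.41 TPM in aged and 30.1 ± 5.36 TPM in young livers. Ctsk, the collagen-degrading cathepsin of osteoclasts, was the lowest of all 47 at 0.43 to 1.83 TPM in treated, 0.37 to 0.86 TPM in aged and 0.22 to 0.55 TPM in young livers, and was not tested.

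**Figure D3:**
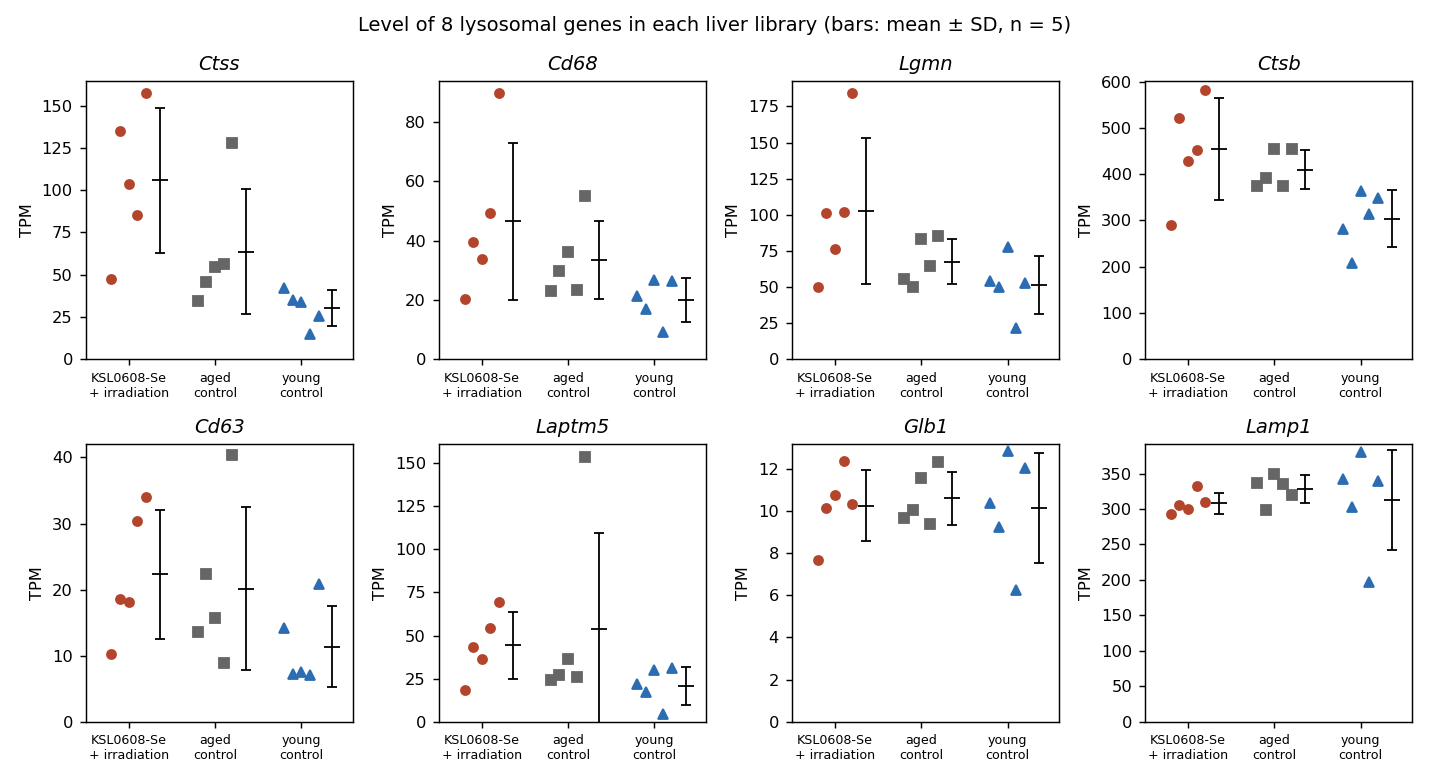
Levels of 8 lysosomal genes in TPM, with treated libraries (circles) left, aged (squares) in the middle and young (triangles) right, and bars for mean ± SD over 5 libraries. Every treated value of Ctss lies above every young value, Ctsb in aged libraries lies above young ones, and Glb1 and Lamp1 overlap in all 3 groups. The lower SD bar of Laptm5 in aged livers is cut off at 0.

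Among the membrane proteins, Cd68, Cd63 and Laptm5 varied most between treated and between aged libraries, and Lamp1 and Lamp2 varied least. Cd68 encodes macrosialin, a lysosomal protein of macrophages that is used as their marker. It stood at 20.16, 39.35, 33.77, 49.24 and 89.82 TPM in treated livers, at 23.09, 29.76, 36.18, 23.44 and 54.95 TPM in aged livers and at 21.3, 16.77, 26.81, 9.02 and 26.48 TPM in young livers. Treated 1 lay within the young range and treated 5 above all others. The differences were 1.10 (SE 0.36, adjusted p = 0.120) for treated minus young, 0.37 (SE 0.36, adjusted p = 0.925) for treated minus aged and 0.73 (SE 0.36, adjusted p = 0.619) for aged minus young livers. The first passed without treated 1 (1.35, adjusted p = 0.0340), and it ran over 0.82 to 1.35 leaving out single libraries.

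Cd63 encodes a tetraspanin of late endosomes and lysosomes. Its levels were 10.32, 18.54, 18.15, 30.42 and 34.03 TPM in treated livers, 13.53, 22.39, 15.67, 8.85 and 40.32 TPM in aged livers and 14.24, 7.18, 7.46, 7.05 and 20.85 TPM in young livers. Aged 5 was the highest of all libraries, and the groups overlapped. Cd63 differed by 0.93 (SE 0.40, adjusted p = 0.232) in treated against young and by 0.73 (SE 0.40, adjusted p = 0.696) in aged against young livers.

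Laptm5, a lysosomal membrane protein of blood cells, stood at 18.17, 43.24, 36.22, 54.11 and 69.46 TPM in treated livers, at 24.37, 27.11, 36.54, 26.04 and 153.4 TPM in aged livers and at 21.71, 17.02, 29.82, 4.22 and 31.42 TPM in young livers. Aged 5 was the highest of all libraries and lay far above the other 4 aged ones. The difference was 1.17 (SE 0.58, adjusted p = 0.311) for treated minus young and 1.14 (SE 0.58, adjusted p = 0.631) for aged minus young livers. Without aged 5 the aged minus young difference was 0.66. Other markers were also high in aged 5. Its T and NK cell markers summed to 317 TPM (22.0 to 108 TPM in the other aged libraries), its B and plasma cell markers to 5440.4 TPM (802 to 2234 TPM) and its cell cycle genes to 165 TPM (33.7 to 43.1 TPM). Their part in the level of Laptm5 was not tested.

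Lamp1 encodes the glycoprotein that makes up much of the lysosomal membrane's inner coat, and its promoter with 4 E-box letters is printed above. It stood at 292.98, 305.52, 299.55, 331.85 and 309.24 TPM in treated livers, at 337.3, 298.04, 349.81, 335.74 and 320.13 TPM in aged livers and at 342.96, 302.31, 381.02, 197.48 and 339.43 TPM in young livers. Apart from young 4, all libraries lay between 292.98 and 381.02 TPM. The 95% intervals of the log2 difference ran over -0.31 to 0.33 for treated minus young (0.01, SE 0.15, adjusted p = 0.982), -0.41 to 0.23 for treated minus aged (-0.09, SE 0.15, adjusted p = 0.956) and -0.22 to 0.42 for aged minus young livers (0.10, SE 0.15, adjusted p = 1.00). Its relative Lamp2, which is also the receptor of chaperone-mediated autophagy, averaged 225 ± 8.25 TPM in treated, 229 ± 26.0 TPM in aged and 205 ± 46.9 TPM in young livers.

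Scarb2, the membrane receptor that carries glucocerebrosidase to the lysosome, averaged 30.6 ± 5.35 TPM in treated, 30.7 ± 4.90 TPM in aged and 34.1 ± 13.3 TPM in young livers. Mcoln1, a cation channel of the lysosomal membrane, averaged 14.6 ± 3.71 TPM in treated, 13.6 ± 4.70 TPM in aged and 16.6 ± 9.57 TPM in young livers. Its highest libraries were treated 2 at 18.45 and treated 3 at 18.8 TPM, aged 4 at 21.89 TPM and young 5 at 33.72 TPM.

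Glb1, the galactosidase gene whose promoter is printed above, had group means that differed by less than the spread of the libraries. It stood at 7.66, 10.13, 10.77, 12.38 and 10.34 TPM in treated livers, at 9.68, 10.05, 11.55, 9.38 and 12.32 TPM in aged livers and at 10.36, 9.25, 12.86, 6.23 and 12.05 TPM in young livers. Treated 1 and young 4 were the lowest, and the groups overlapped throughout. The means were 10.3 ± 1.70 TPM in treated, 10.6 ± 1.27 TPM in aged and 10.2 ± 2.61 TPM in young livers. The log2 difference was 0.04 (SE 0.18, 95% interval -0.34 to 0.42, adjusted p = 0.943) for treated minus young, -0.05 (SE 0.18, -0.43 to 0.33, adjusted p = 0.988) for treated minus aged and 0.09 (SE 0.18, -0.29 to 0.47, adjusted p = 1.00) for aged minus young livers. These intervals leave room for differences of up to 0.47 log2 units, the sign of each difference turned under another scaling or without single libraries, and the RNA level does not measure galactosidase activity.

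The glycan-degrading enzymes and partners, with Glb1 counted among them, had 0 of 8 called in each comparison. Ctsa, the protective protein that stabilises the galactosidase and the sialidase, averaged 131 ± 31.3 TPM in treated, 134 ± 18.1 TPM in aged and 172 ± 60.0 TPM in young livers. Neu1, the sialidase, averaged 17.2 ± 2.58 TPM in treated, 18.1 ± 1.04 TPM in aged and 18.1 ± 3.33 TPM in young livers. Gaa, the acid glucosidase that degrades glycogen, averaged 35.1 ± 4.71 TPM in treated, 41.7 ± 4.51 TPM in aged and 45.8 ± 15.5 TPM in young livers, with a treated minus aged difference of -0.25 (SE 0.21, adjusted p = 0.925). Without young 4, Gaa passed the test in treated against young livers, where it was lower (-0.52, adjusted p = 0.0408). Man2b1, an alpha-mannosidase, averaged 31.3 ± 5.71 TPM in treated, 34.9 ± 6.29 TPM in aged and 38.6 ± 15.8 TPM in young livers. Manba, a beta-mannosidase, was lower than Man2b1 in every group and averaged 3.87 ± 0.649 TPM in treated, 4.24 ± 1.02 TPM in aged and 4.29 ± 1.70 TPM in young livers. Fuca1, a fucosidase, averaged 15.5 ± 4.25 TPM in treated, 16.8 ± 4.01 TPM in aged and 16.1 ± 6.51 TPM in young livers. Aga, which cuts the bond between glycan and asparagine, averaged 17.3 ± 2.32 TPM in treated, 17.4 ± 1.56 TPM in aged and 18.0 ± 2.39 TPM in young livers.

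Enzymes of glycosaminoglycan breakdown had 0 of 7 called in each comparison. Gusb, the glucuronidase, stood at 14.61, 16.03, 15.55, 14.94 and 16.39 TPM in treated livers, at 17.72, 12.91, 16.92, 14.74 and 15.91 TPM in aged livers and at 15.53, 11.65, 14.65, 5.43 and 15.09 TPM in young livers. Young 4 alone was far below the others. The differences were 0.37 (SE 0.21, adjusted p = 0.390) for treated minus young and 0.38 (SE 0.21, adjusted p = 0.724) for aged minus young livers, and without young 4 they were 0.12 and 0.13. Ids, an iduronate sulfatase, averaged 3.63 ± 0.503 TPM in treated, 4.10 ± 0.713 TPM in aged and 3.16 ± 0.830 TPM in young livers, with differences of -0.14 (SE 0.17, adjusted p = 0.935) for treated minus aged and 0.31 (SE 0.17, adjusted p = 0.674) for aged minus young livers. Arsb, a sulfatase of dermatan sulfate, averaged 8.66 ± 1.16 TPM in treated, 10.3 ± 1.36 TPM in aged and 10.2 ± 3.54 TPM in young livers, with a treated minus aged difference of -0.23 (SE 0.22, adjusted p = 0.925).

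The remaining enzymes of this kind were low, apart from Naglu. Naglu, a glucosaminidase of heparan sulfate, averaged 13.2 ± 2.10 TPM in treated, 14.8 ± 2.10 TPM in aged and 18.1 ± 7.08 TPM in young livers. Sgsh, a sulfatase of the same glycan, averaged 2.16 ± 0.447 TPM in treated, 2.57 ± 0.722 TPM in aged and 2.52 ± 1.26 TPM in young livers. Idua, the iduronidase, averaged 4.22 ± 1.18 TPM in treated, 3.97 ± 1.11 TPM in aged and 4.70 ± 1.13 TPM in young livers. Galns, a sulfatase of keratan sulfate, averaged 3.31 ± 0.777 TPM in treated, 3.25 ± 1.09 TPM in aged and 3.86 ± 1.76 TPM in young livers.

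Among sphingolipid hydrolases and their activators, Asah1 had the smallest p of any of the 46 genes in treated against aged livers. It encodes acid ceramidase, which splits ceramide into sphingosine and a fatty acid. Its levels were 17.98, 22.93, 22.89, 23.16 and 29.94 TPM in treated livers, 15.94, 18.8, 16.16, 17.71 and 21.42 TPM in aged livers and 21.28, 20.84, 18.4, 15.11 and 16.48 TPM in young livers. Treated libraries other than treated 1 were above every library of the other groups, and treated 1 was within both ranges. The difference was 0.35 (SE 0.15, adjusted p = 0.925) for treated minus aged and 0.32 (SE 0.15, adjusted p = 0.281) for treated minus young livers, and neither passed.

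Gm2a, the activator protein that presents ganglioside to its enzyme, averaged 51.2 ± 11.8 TPM in treated, 52.1 ± 10.2 TPM in aged and 40.8 ± 6.78 TPM in young livers, with differences of 0.31 (SE 0.18, adjusted p = 0.389) for treated minus young and 0.34 (SE 0.18, adjusted p = 0.650) for aged minus young livers. Hexa, the hexosaminidase subunit that acts on that ganglioside, averaged 39.4 ± 11.5 TPM in treated, 38.9 ± 2.33 TPM in aged and 40.8 ± 13.0 TPM in young livers. Psap, the precursor of the saposins, averaged 335 ± 65.1 TPM in treated, 353 ± 76.0 TPM in aged and 303 ± 115 TPM in young livers. Smpd1, the acid sphingomyelinase, averaged 20.9 ± 2.06 TPM in treated, 23.8 ± 4.37 TPM in aged and 25.9 ± 9.07 TPM in young livers, with a treated minus aged difference of -0.16 (SE 0.23, adjusted p = 0.940). Arsa, which desulfates sulfatide, averaged 6.29 ± 1.45 TPM in treated, 7.08 ± 0.936 TPM in aged and 8.47 ± 3.17 TPM in young livers, and without young 4 it was lower in treated than in young livers (-0.58, adjusted p = 0.0424). Gla, the galactosidase lost in Fabry disease, averaged 2.77 ± 1.02 TPM in treated, 2.77 ± 0.477 TPM in aged and 2.71 ± 0.374 TPM in young livers. Galc, the galactosylceramidase, averaged 1.85 ± 0.394 TPM in treated, 2.07 ± 0.632 TPM in aged and 1.87 ± 0.955 TPM in young livers.

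Genes of neutral lipid and cholesterol handling had 0 of 4 called. Npc2, the soluble protein that binds cholesterol in the lysosome, stood at 38.09, 50.32, 44.64, 50.65 and 52.77 TPM in treated livers, at 43.9, 44.03, 51.48, 42.86 and 44.81 TPM in aged livers and at 38.13, 33.9, 41.21, 25.2 and 45.59 TPM in young livers. The highest young library overlapped both other groups. Npc2 differed by 0.37 (SE 0.16, adjusted p = 0.218) between treated and young and by 0.32 (SE 0.16, adjusted p = 0.588) between aged and young livers. Npc1, the membrane protein that receives cholesterol from Npc2, averaged 28.9 ± 2.26 TPM in treated, 28.5 ± 2.38 TPM in aged and 32.2 ± 6.81 TPM in young livers. Lipa, the acid lipase that splits cholesteryl esters and triglycerides, averaged 93.6 ± 11.3 TPM in treated, 112 ± 21.02 TPM in aged and 99.6 ± 32.1 TPM in young livers, with a treated minus aged difference of -0.24 (SE 0.23, adjusted p = 0.925). Ppt1, which removes palmitate from proteins, averaged 17.0 ± 2.48 TPM in treated, 16.2 ± 3.58 TPM in aged and 15.3 ± 4.21 TPM in young livers.

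Of the proton pump genes, Atp6ap1, an accessory subunit, averaged 50.8 ± 7.21 TPM in treated, 53.4 ± 7.47 TPM in aged and 54.1 ± 14.98 TPM in young livers. Atp6v0d2, a subunit prominent in osteoclasts and macrophages, averaged 6.52 ± 2.18 TPM in treated, 6.98 ± 3.09 TPM in aged and 7.69 ± 3.78 TPM in young livers. Grn, the precursor of granulins that supports lysosomal enzymes, averaged 161 ± 44.1 TPM in treated, 146 ± 24.5 TPM in aged and 129 ± 31.2 TPM in young livers. Tfeb stood at 3.65, 4.73, 6.28, 5.34 and 6.32 TPM in treated livers, at 3.56, 4.48, 5.24, 3.95 and 10.3 TPM in aged livers and at 4.39, 3.23, 5.5, 3.2 and 6.41 TPM in young livers. Aged 5 was the highest and the groups overlapped. The Tfeb differences were 0.19 (SE 0.24, adjusted p = 0.723) for treated minus young, 0.01 (SE 0.24, adjusted p = 0.999) for treated minus aged and 0.18 (SE 0.24, adjusted p = 1.00) for aged minus young livers. TFEB is regulated largely by where the protein sits in the cell, which RNA levels do not show.

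The genes whose promoter window held CACGTG were set beside the others. The median treated minus young difference was -0.08 over the 12 with the letters and 0.16 over the 27 tested without them. For treated minus aged the medians were -0.06 and -0.03, and for aged minus young -0.02 and 0.18. The longer form TCACGTG split the tested genes into 11 with and 28 without it. The medians were then -0.08 and 0.10 for treated minus young and -0.06 and -0.03 for treated minus aged. For aged minus young they were 0.02 and 0.16. These are descriptions of small sets of unequal levels, and no test was made.

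The genes differed in how closely they tracked macrophage markers from library to library. Over the 15 libraries, Cd68 correlated with the mean log2(TPM + 1) of the 21 macrophage and monocyte markers at Pearson r = 0.97 (Spearman rho 0.94). Lgmn did so at r = 0.95 (rho 0.91) and Ctss at r = 0.93 (rho 0.89). Without young 4 and treated 5, the libraries farthest from the median of the markers, r was 0.91 for Cd68, 0.87 for Lgmn and 0.91 for Ctss. With each group centred on its own mean it was 0.95, 0.94 and 0.86 in that order. Laptm5, Npc2, Grn and Ctsb were also above 0.8. Without young 4 and treated 5 they were at 0.80, 0.75, 0.57 and 0.86 in that order. With each group centred they were at 0.85, 0.75, 0.87 and 0.65. At the other end, 12 of the 47 genes had r under 0.2, among them Ctsl at 0.05 (rho -0.11), Gaa at -0.01 and Npc1 at 0.02, and Glb1 was at 0.55 and Lamp1 at 0.40. These weaker values also moved with the libraries used. Without young 4 and treated 5, r was -0.39 for Ctsl, -0.30 for Gaa, -0.16 for Npc1, 0.42 for Glb1 and -0.15 for Lamp1. With each group centred it was 0.39 for Ctsl, 0.39 for Gaa, 0.36 for Npc1, 0.72 for Glb1 and 0.53 for Lamp1. With the 12 Kupffer cell markers r was 0.97 for Lgmn, 0.86 for Cd68, 0.85 for Grn and 0.80 for Ctss over the 15 libraries. Without young 4 and treated 5 these were 0.89, 0.58, 0.58 and 0.60 in that order. Ctss also followed the 15 T and NK cell markers, at r = 0.84 (rho 0.80, 0.77 without treated 2 and aged 5, and 0.70 with groups centred). These values describe 15 libraries that share groups and a common scaling to the total, and the marker Lyz2 itself encodes a lysosomal enzyme.

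**Figure D4:**
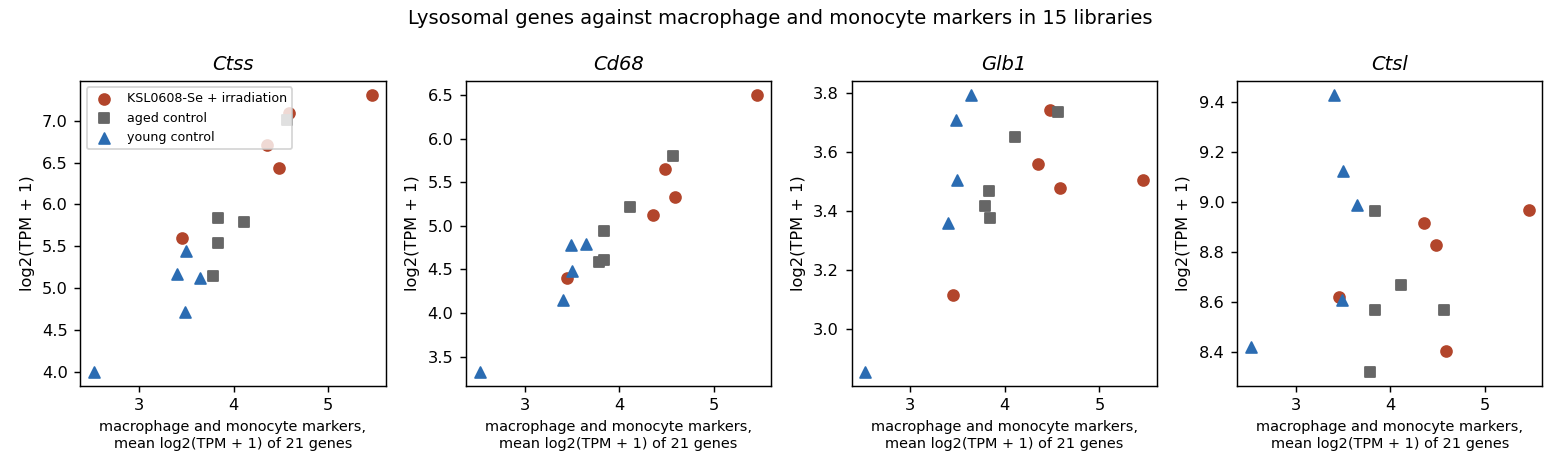
Log2(TPM + 1) of 4 lysosomal genes (vertical axes) against the mean log2(TPM + 1) of 21 macrophage and monocyte markers (horizontal axis) in the 15 libraries, treated as circles, aged as squares and young as triangles. Ctss and Cd68 rise along the marker axis (r = 0.93 and 0.97), Glb1 does so less (0.55), and Ctsl does not (0.05).

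Genes of the lysosomal system outside the 47 were taken from 6 lists, with 129 of 136 measured genes tested. In treated against young livers 2 of the 129 were called, both higher, beside 2.91% of all genes. One of them was Pla2g15, a lysosomal phospholipase. It averaged 16.6 ± 2.55 TPM in treated, 16.5 ± 2.77 TPM in aged and 9.08 ± 3.28 TPM in young livers, and rose in treated against young livers by 0.86 (SE 0.22, adjusted p = 0.0414). In aged against young livers Pla2g15 differed by 0.85 (adjusted p = 0.0823), which did not pass. Among the 129 genes limma called 0 in treated against aged and 0 in aged against young livers. At an unadjusted p under 0.05 there were 28 of 129 (21.7%) in treated against young livers, against 17.8% of all genes, 2 (1.55%) in treated against aged livers, against 4.41%, and 8 (6.20%) in aged against young livers, against 8.72%. The 28 were 8 of 29 other hydrolases, 7 of 26 autophagy genes, 6 of 19 regulators, 5 of 16 pump subunits, 2 of 22 membrane proteins and 0 of 17 sorting genes.

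The list of other pump subunits had 0 of 16 called, with Atp6v0b at 87.9 ± 8.96 TPM in treated, 88.3 ± 9.44 TPM in aged and 75.7 ± 19.8 TPM in young livers, and Atp6v0e and Atp6v1e1 next by p in aged against young livers. The 5 pump subunits with an unadjusted p under 0.05 in treated against young livers, named after their values were seen, were Atp6v1g1, Atp6v1d, Atp6v0e, Tcirg1 and Atp6ap2. Their log2 differences there ran over 0.35 to 0.66, and none passed the adjusted threshold. Among the other hydrolases not called, Rnaset2b, a ribonuclease, stood at 142 ± 15.1 TPM in treated, 124 ± 25.3 TPM in aged and 86.9 ± 23.0 TPM in young livers (treated minus young 0.74, SE 0.19, adjusted p = 0.0504). The like-named Rnaset2a averaged 16.6 TPM in treated, 17.4 TPM in aged and 18.6 TPM in young livers (treated minus young -0.02, SE 0.28, adjusted p = 0.986). Other membrane proteins had 0 of 22 called. Gpnmb, a glycoprotein of lipid-laden macrophages, averaged 7.89 ± 12.7 TPM in treated, 1.10 ± 0.778 TPM in aged and 0.132 ± 0.128 TPM in young livers, with 30.48 TPM in the highest treated library (treated minus young 2.06, SE 0.58, adjusted p = 0.0720). Slc15a3 and Laptm4b came next there by p in aged against young livers. Of 17 enzyme-sorting genes 0 were called, and Gga2, an adaptor of the sorting route, was at 9.22 ± 1.56 TPM in treated, 11.98 ± 2.47 TPM in aged and 7.83 ± 1.51 TPM in young livers (aged minus young 0.55, SE 0.18, adjusted p = 0.226), followed by Sort1 and Ap1g1 by p in that comparison. Regulators had 0 of 19 called, with Ppp3cb and Ppargc1a smallest by p in aged against young livers, and autophagy genes 0 of 26, led in that comparison by Gabarapl1, Atg5 and Atg12. In treated against young livers the order was another, with Tfec, Zkscan3 and Rptor first among regulators and Gabarapl1, Gabarapl2 and Atg7 among autophagy genes. Gabarapl1, which takes part in forming the autophagosome, averaged 133 ± 25.7 TPM in treated, 156 ± 27.9 TPM in aged and 204 ± 58.2 TPM in young livers (treated minus young -0.59, SE 0.20, adjusted p = 0.118).

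Some of the 47 genes overlap neighbours, and the strand setting of the library kit is not given in the sources used here. In the GENCODE M21 annotation 16 of the 47 share exonic sequence with another gene, 14 of them with a gene on the other strand, among them Ctsb with Fdft1 and Lamp1 with Grtp1. Glb1 shares exonic sequence with Tmppe on its own strand, and Ctsd with a predicted gene. Values of these genes are uncertain to the extent that reads were split between the partners. Ctss, Lgmn, Cd68, Cd63 and Laptm5 share none.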

How the data were processed

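Total RNA of whole liver was sequenced in 15 libraries. Reads were trimmed with fastp and processed with HISAT and RSEM, per the submitters' processing notes, which name the build GRCm39, and versions are not given in the sources used here. The authors deposited TPM to 2 decimals. A further 3 columns of group means were not used. From these values, log2(TPM + 1) was fitted with limma 3.58.1 in R 4.3.3 (3 groups in 1 fit, trend and robust variances) for genes averaging 1 TPM or more. Benjamini-Hochberg adjustment ran over every gene tested, and the fit was tested on simulated data. This scale understates the differences of low genes.

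Full statistics are given for called genes, for the 10 with the smallest p in each comparison, and for Glb1, Ctsd, Lamp1, Cd68 and Tfeb. The genes, lists and tests were chosen with earlier results of these data known. Alternatives changed the pseudocount, filter, scaling, weights, fit or libraries. RefSeq promoters and GENCODE M21 are on the older build GRCm38, so no gene coordinates on GRCm39 are printed. Of the genes outside the 47 that this rule names, 2 are not reported here.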

Additional observations from a re-analysis of the deposited data

Results flagged for a closer look

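In 10 of 141 groups of 5 libraries (7.09%) a single library stood apart from the other 4, with a gap of more than 0.71 of the group's range. Independent, normally distributed values would give about 1 in 20. The genes share the same libraries, so 7.09% cannot be weighed against that rate. Young 4 was low for Gusb at 5.43 TPM (other young libraries 11.65 to 15.53), Arsa at 3.32 TPM (8.53 to 11.97), Lipa at 45.98 TPM (100.38 to 125.09) and Tpp1 at 20.86 TPM (30.66 to 34.15). Young 1 was low for Atp6v0d2 at 1.9 TPM (7.16 to 11.37), and young 5 was high for Mcoln1 at 33.72 TPM (11.4 to 12.76). Among aged libraries, aged 3 was high for Npc2 at 51.48 TPM (others 42.86 to 44.81). Aged 4 was low for Ctsz at 242.25 TPM (297.69 to 311.44) and high for Mcoln1 at 21.89 TPM (10.57 to 13.01). Aged 5 was high for Laptm5 at 153.4 TPM (24.37 to 36.54).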

How the results depend on the processing

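The call of Ctss in treated against young livers held in 22 of 26 alternatives, with a log2 difference of 1.52 to 2.00 and an adjusted p of 0.000478 to 0.0591. The number of the 47 genes called there was 1 in the reported fit, 0 with no filter, 2 with quantile normalization (Ctss and Ctsb), 4 with library weights (Ctss, Ctsb, Cd68 and Lgmn), 5 without young 4, aged 5 and treated 1 together (the same 4 and Laptm5) and 0 to 4 leaving out single libraries. For treated against aged and for aged against young livers it was 0 under every alternative run. Ctss in treated against aged livers ranged from 0.58 without aged 1 (adjusted p = 0.971) to 1.31 without those 3 libraries together (adjusted p = 0.0524). The labels do not say whether replicate numbers mark pairs. Same-numbered libraries correlated between -0.249 and 0.309 in their deviations. This cannot settle the question, as libraries with different numbers were not compared. With a replicate block 2 genes were called in treated against young livers (Ctss and Cd68). Over all genes, treated against young livers gave 354 calls (265 higher, 89 lower), 188 with no filter, 217 with a filter at 5 TPM, 574 with quantile normalization (252 higher, 322 lower), 654 with median-ratio scaling (341 higher, 313 lower), 1538 with library weights, 1476 without those 3 libraries and 180 to 1185 leaving out single ones (1185 without young 4). Aged against young livers gave 132 (113 higher, 19 lower), 119 with quantile normalization (78 higher, 41 lower), 135 with median-ratio scaling (97 higher, 38 lower), 76 with the filter at 5 TPM, 244 with library weights and 79 to 163 leaving out single libraries. Treated against aged livers gave 1, 0 with the filter at 5 TPM (280 at an unadjusted p under 0.05) and 1 to 2 leaving out single libraries. Quantile normalization moved the median of all genes in treated against young livers to -0.07, against 0.06 as deposited. The median of the 46 genes there ran over -0.12 to 0.12 leaving out single libraries.

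Differences near 0 changed sign, and the cause was not tested. With quantile normalization these were Glb1 at -0.00142 in aged against young and -0.0649 in treated against young livers and Tfeb at -0.0355 in treated against aged livers. With median-ratio scaling they were Glb1 at -0.0555 and Lamp1 at -0.0909 in treated against young and Tfeb at -0.00875 and Ctsd at -0.0190 in treated against aged livers. With library weights they were Lamp1 at -0.00350 in aged against young, Ctsd at -0.00770 in treated against aged and Glb1 at -0.00828 and Lamp1 at -0.11 in treated against young livers. A pseudocount of 5 gave Tfeb -0.00684 in treated against aged livers. Without young 4, aged 5 and treated 1, Tfeb was -0.13, Lamp1 -0.0458 and Glb1 -0.11 in aged against young, Glb1 0.0927 in treated against aged, and Glb1 -0.0209 and Lamp1 -0.13 in treated against young livers. Leaving out single libraries, aged against young values ran over -0.0362 to 0.30 for Tfeb, -0.0542 to 0.18 for Lamp1 and -0.0618 to 0.17 for Glb1. Treated against aged values ran over -0.12 to 0.0410 for Glb1, -0.0981 to 0.23 for Tfeb and -0.0633 to 0.0555 for Ctsd, and treated against young values over -0.11 to 0.13 for Glb1 and -0.15 to 0.0907 for Lamp1. TPM without depth gives no counting interval, and 5 libraries a group limit what can be detected.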

Other observations

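Other lysosomal genes tracked a different marker list. Over the 15 libraries, Lipa (acid lipase) correlated with the mean of 11 sinusoidal endothelial markers at Pearson r = 0.86 and Spearman rho = 0.86, and at 0.73 without aged 2 and young 4, the libraries farthest from the median of that list. Arsb did so at r = 0.83 (rho 0.65, 0.67 without these libraries), Aga at 0.83 (0.75, 0.81) and Manba at 0.80 (0.62, 0.47). With the macrophage markers the same genes had r of 0.25 for Lipa, 0.10 for Arsb, -0.07 for Aga and 0.34 for Manba. The endothelial list itself had 0 of 11 genes called in any comparison and summed to 156 to 330.2 TPM in treated, 129 to 295 TPM in aged and 94.5 to 263 TPM in young libraries. These are descriptions over libraries that share groups, and the difference between the lists was not tested.

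Fuca1, the fucosidase gene, had a median correlation of -0.26 with the other 46 genes over the 15 libraries, and it was highest at 27.48 TPM in young 4, the library in which 33 of the 47 genes were lowest. In the other young libraries Fuca1 stood at 11.72 to 15.23 TPM. With the macrophage markers its r was -0.23 over the 15 libraries and 0.64 without young 4 and treated 5, and with the Kupffer cell markers it was -0.26 and 0.72, so the sign turned when these libraries were left out.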
